A study of Mus musculus with 25 samples.

Results

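Members of the let-7 microRNA family were followed in mouse blood at 5 ages, namely the precursors mmu-let-7f-1, mmu-let-7f-2, mmu-let-7g, mmu-let-7i and mmu-mir-98, written below without the species prefix. They were chosen by name, and the choice rested on measured values of these data, namely lower counts at 30 and 24 than at 2 months and a falling trend with age. All 5 were found among the 1193 precursors of the deposited table, and all 5 passed the filter on low counts, which kept 28.3% of them. C57BL/6 males, of a common inbred laboratory strain, gave the blood at 2, 9, 15, 24 and 30 months, with 5 small RNA libraries at each age and 25 in all. The labels name no treatment or altered allele, and 2 months was the age the others were set against. Each library has its own number in the labels, but nothing says in words that the numbers are separate animals, so p-values measure the spread between these libraries.

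The let-7 family was first found as a timer of larval development in the worm Caenorhabditis elegans and is conserved in mammals. Its members share a seed, the stretch near the 5′ end that pairs with target messenger RNAs, and they repress growth-promoting targets such as Hmga2 and the Ras genes. Their mature forms rise as many cell types differentiate, and the RNA-binding protein Lin28 blocks their maturation in stem and progenitor cells. miR-98 belongs to the family by its seed, despite its name.

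The mature sequences are shown because the members are told apart by only a few bases behind a common seed, which the capitals mark (bases 2 to 8). They come from RefSeq on mouse assembly GRCm38.p6, where all 5 members were matched by symbol. The members give 4 different 5p sequences, since both hairpins of let-7f give the same one, and let-7a-5p and let-7d-5p are set beside them as products of the hairpins next to let-7f-1.
let-7f-5p: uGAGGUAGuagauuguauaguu
let-7g-5p: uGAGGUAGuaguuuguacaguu
let-7i-5p: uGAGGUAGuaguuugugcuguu
miR-98-5p: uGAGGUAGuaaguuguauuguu
let-7a-5p: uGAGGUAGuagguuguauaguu
let-7d-5p: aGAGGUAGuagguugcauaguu

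With positions counted from 1 at the 5′ end and the base of the first-named sequence written first, let-7a-5p and let-7f-5p differed at 1 of 22 positions (G12A). From let-7f-5p, let-7g-5p differed at 2 positions (A12U and U18C) and miR-98-5p at 3 (G11A, A12G and A19U). From let-7g-5p, let-7i-5p differed at 2 (A17G and A19U). No position of difference among the members lay in the seed. let-7f-5p and miR-98-5p held 7 G or C bases of 22 (31.8%), let-7g-5p held 8 (36.4%) and let-7i-5p held 9 (40.9%).

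The members lie at 4 loci of GRCm38.p6, a build that is not necessarily the one the authors used. let-7f-1 is at chromosome 13 (48537829 to 48537917, minus strand), within an exon of the long noncoding RNA 6720427I07Rik, with let-7a-1 at a gap of 261 bases and let-7d at a gap of 1714 bases. let-7f-2 (chromosome X, 151912346 to 151912428, plus strand) and mir-98 (151913214 to 151913321) lie 785 bases apart in an intron of Huwe1, a ubiquitin ligase gene. let-7g (chromosome 9, 106178840 to 106178927, plus strand) lies in an intron of Wdr82, which encodes a subunit of histone methyltransferase complexes. let-7i (chromosome 10, 122985640 to 122985724, minus strand) lies in an exon of D630033A02Rik, annotated as a transcribed pseudogene. No other hairpin was annotated within 10 kb of let-7g or let-7i on their strand. Hosts are from the GENCODE vM21 annotation.

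The 2 copies of let-7f cannot be told apart by their 5p product. Their 3p arms differ at 4 of 21 shared positions, marked by capitals.
let-7f-1-3p: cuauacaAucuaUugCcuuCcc
let-7f-2-3p: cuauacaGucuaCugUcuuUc
The counts of let-7f-2 were 1.05 to 1.12 times those of let-7f-1 in the 25 libraries, with a median of 1.09. Their log2 levels over the 25 libraries had r = 0.9997, so they were read as 1 measurement under 2 names. The rule by which reads that match both hairpins were assigned was not given in the sources used here. The values of let-7f-1 are given in full below and those of let-7f-2 only where they add something.

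Library totals ran from 4884058 to 24253236 counts, with 5746508 to 13070018 at 30 months and 16209205 to 22245787 at 2 months. No 2 libraries of an age agreed within sampling noise, since over 50 same-age pairs the lowest chi-square, divided by its degrees of freedom, was 161. The blood label was checked on the red cell markers mir-451a, mir-144, mir-486a and mir-486b, which summed to between 460221 and 910194 CPM (counts per 1000000 counts, on library sizes scaled by the trimmed mean of M-values, TMM) in all 25 libraries. mir-486a and mir-486b averaged 296074 and 295885 CPM, so the sum may count the same reads under both names. At the other end, the liver marker mir-122 reached at most 1.13 CPM. The 6 sequencing lanes in the column names (3 to 8) were spread unevenly over the ages, and lanes 3 and 4 held no library of 30 months.

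let-7i was the most abundant member in each library, with 0.153% to 1.23% of all counts, and mir-98 the least abundant. The 5p products of the members all have 22 bases, but a count covers both arms, of which the 3p arm of let-7f-2 has 21 bases in RefSeq, so the levels of different members are set side by side only roughly. Mean levels of let-7i were 8466 ± 3681 CPM at 2 months, 6991 ± 2426 at 9, 7053 ± 2977 at 15, 5293 ± 2254 at 24 and 4308 ± 2183 at 30 months (SD, n = 5 each). For let-7f-1 they were 1692 ± 419, 1231 ± 494, 1315 ± 581, 816 ± 292 and 675 ± 297 CPM at the same ages. For all 5 members the order of the means was 2, 15, 9, 24 and 30 months from high to low, and the ranges of each pair of neighbours in that order overlapped for each member.

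**Figure D1:**
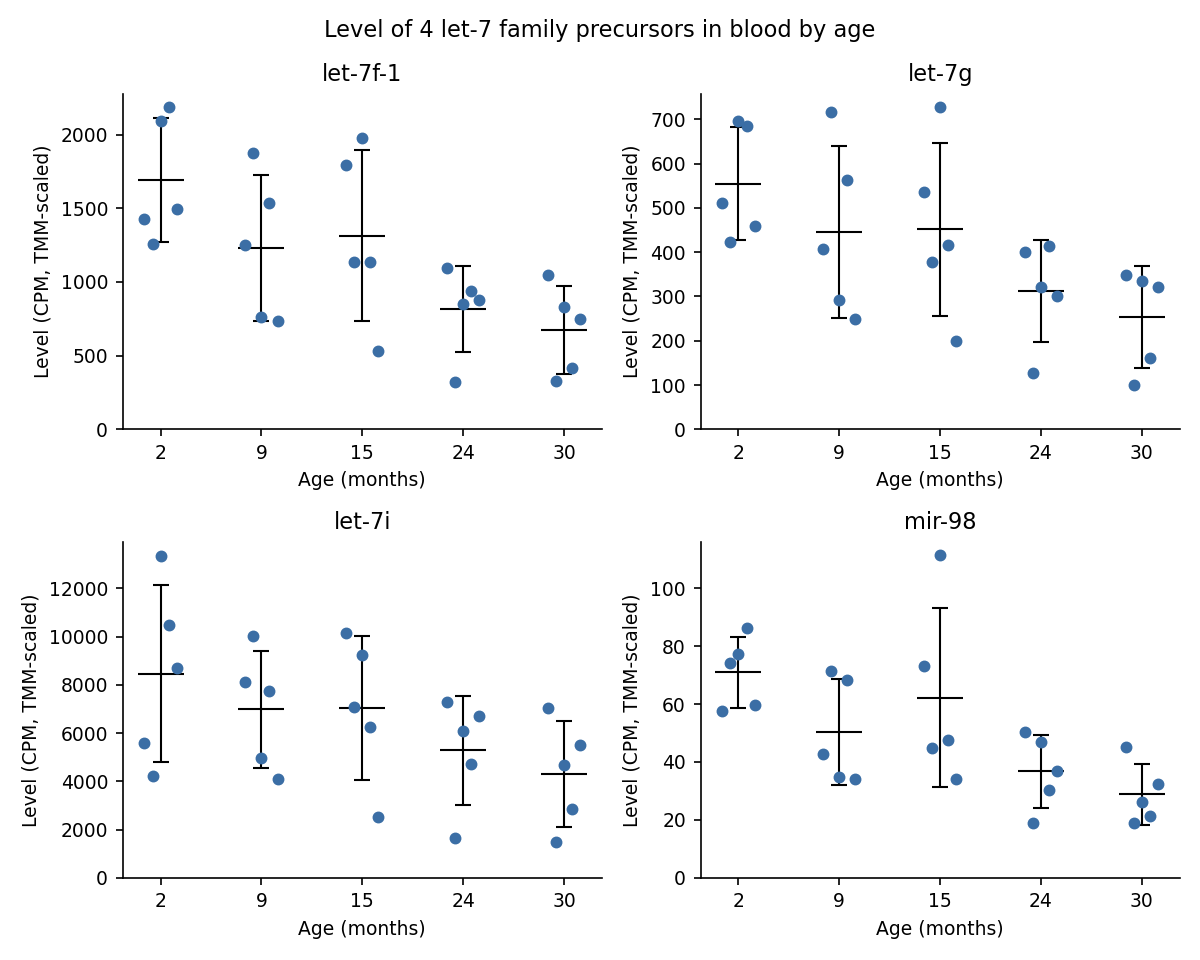
Level of let-7f-1, let-7g, let-7i and mir-98 (CPM on TMM-scaled library sizes, vertical axes from 0) in blood at 2, 9, 15, 24 and 30 months. Points are single libraries, the long dash is the mean and the bars are ± SD (n = 5). The let-7f-1 libraries of 30 months sit between 330 and 1049 CPM, below all of those of 2 months, while those of let-7i overlap between these ages.

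The contrast of 30 against 2 months, the contrast of 24 against 2 months and the linear trend with age had been seen in earlier results of these data when the members were chosen. Values for them are therefore given as a description. Counts of calls in them stand only beside the share of all precursors called, as a record of the fit, and are not a test of the members. At 30 months let-7f-1 stood at 39.9% of its young level, mir-98 at 40.7%, let-7g at 45.7% and let-7i at 50.9%. Since this is bulk blood, fewer cells that hold a microRNA and less of it per cell cannot be told apart.

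let-7f-1 had 1049, 330, 828, 418 and 750 CPM in the libraries of 30 months (replicates 1 to 5), against 1427, 1256, 2093, 2185 and 1497 CPM at 2 months. All old libraries were below all young ones. The log2 change was −1.33 (SE 0.36), and that of let-7f-2, with 348 to 1135 CPM at 30 months and 1351 to 2360 CPM at 2 months, was −1.31 (SE 0.36).

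mir-98, the second product of the Huwe1 intron, had 45.1, 19.1, 26.1, 21.4 and 32.4 CPM at 30 months, against 57.5, 74.2, 77.2, 86.2 and 59.6 CPM at 2 months. The groups did not overlap here either, and the log2 change was −1.30 (SE 0.31).

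let-7g of the Wdr82 intron had 349, 99.5, 334.9, 161 and 322 CPM at 30 months, against 511, 423, 695, 685 and 460 CPM at 2 months. Old and young libraries did not overlap, and the log2 change was −1.13 (SE 0.37).

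let-7i had 7033, 1471, 4678, 2870 and 5488 CPM at 30 months, against 5593, 4207, 13331, 10488 and 8713 CPM at 2 months. Here the groups overlapped, because replicates 1, 3 and 5 of 30 months exceeded the lowest young library, and the spread at 2 months was wide (coefficient of variation 43.5%, against 17.2% for mir-98). The log2 change was −0.97 (SE 0.42).

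By the quasi-likelihood test of edgeR, with the threshold at an adjusted p of 0.05, 4 of the 5 members were called lower at 30 against 2 months and let-7i was not. Of all tested precursors 5.03% were called lower and 14.2% in either direction. For 4 of 5 members all libraries of 30 months lay below all of 2 months, as for 5.03% of all precursors. The median log2 change was −1.30 over the members and −0.04 over all precursors. Both let-7f hairpins, read as 1 measurement, count as 2 of the 5 members in these values. Nothing is read from these counts, since the contrast was known when the members were picked. Library totals in place of TMM, or no filter, left only the call of mir-98, and that of let-7g was also lost with lane as a term, with only the compared libraries, or without any 1 of replicates 1, 3 and 4 of 2 months and replicates 2, 4 and 5 of 30 months, where its log2 change ran from −1.18 to −0.87. Within the 4 lanes that held both ages, the log2 differences of 5 library pairs lay between −0.85 and −2.73 for let-7f-1 and between −0.55 and −2.83 for let-7i. 2 of these pairs share replicate 3 of 2 months, and for let-7f-1, let-7g and mir-98 the sign was already set by the groups that do not overlap. With all libraries thinned to the depth of the smallest, the log2 changes were −1.34 for let-7f-1, −1.15 for let-7g, −0.98 for let-7i and −1.33 for mir-98.

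Marker lists of blood and other cells were set beside the members. The platelet and endothelium list (mir-126a, mir-199a-1 and mir-199a-2, 3 of 3 found and none at 0 throughout) summed to 3.13 to 8.20 CPM at 30 months, below the 12.3 to 17.3 CPM at 2 months. The epithelium list (5 of 5 found) summed to 12.4 to 64.8 CPM at 30 months and 61.1 to 118 CPM at 2 months. The red cell list summed to 501702 to 778398 CPM at 30 months and 717002 to 858407 CPM at 2 months, and the neutrophil and monocyte list (mir-223 and mir-142a) to 7809 to 9520 CPM at 30 months and 6808 to 8293 CPM at 2 months. The lymphocyte list (mir-150, mir-155 and mir-342) summed to 159 to 412 CPM at 30 months and 289 to 508 CPM at 2 months. The muscle list, with mir-206 at 0 throughout, summed to 9.33 to 43.5 CPM at 30 months and 23.2 to 233.96 CPM at 2 months. Of these sums only that of the platelet and endothelium list did not overlap between the ages, but a sum is carried by its most abundant marker. Taken singly, mir-223 rose, with 109 to 208 CPM at 30 months and 55.1 to 62.5 CPM at 2 months (log2 change 1.44, SE 0.17, edgeR adjusted p = 1.65e-06). mir-142a, which carries the neutrophil and monocyte sum, had 0.16 (SE 0.19, edgeR adjusted p = 0.656). In the red cell list mir-144 fell, with 152 to 828 CPM at 30 months and 943 to 1442 CPM at 2 months (log2 change −1.41, SE 0.35, edgeR adjusted p = 0.0101). The other markers of that list, which carry its sum, overlapped between the ages. mir-451a had −0.21 (SE 0.14, edgeR adjusted p = 0.347), and mir-486a and mir-486b had −0.30 each (SE 0.18, edgeR adjusted p = 0.284). mir-155 of the lymphocyte list had 0.97 (SE 0.43, edgeR adjusted p = 0.138). The other markers of that list had values below 0. mir-150, which carries the lymphocyte sum, had −0.31 (SE 0.44, edgeR adjusted p = 0.713) and mir-342 had −0.03 (SE 0.32, edgeR adjusted p = 0.974). In the platelet and endothelium list mir-126a had −1.35 (SE 0.34, edgeR adjusted p = 0.0101). mir-199a-1 had −1.66 (SE 0.39, edgeR adjusted p = 0.00755), and neither overlapped. mir-199a-2 overlapped (edgeR adjusted p = 0.152). mir-205 of the epithelium list had 0.701 to 1.19 CPM at 30 months and 1.23 to 2.41 CPM at 2 months. It fell without overlap (edgeR adjusted p = 0.0426), while mir-141, mir-200a and mir-200c overlapped (edgeR adjusted p = 0.102 to 0.138). The part of these cells in the members' values was not tested.

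At 24 months let-7f-1 had 1092, 321, 852, 936 and 879 CPM, all below the lowest young library at 1256 CPM, and stood at 48.2% of the 2-month level (log2 change −1.05, SE 0.36). mir-98 had 50.3, 19.03, 46.9, 30.2 and 37.1 CPM, also all below its young range of 57.5 to 86.2 CPM (log2 change −0.95, SE 0.31). let-7g had 399, 126, 320, 415 and 301 CPM, below its young range as well (log2 change −0.83, SE 0.36). let-7i ran from 1643 to 7308 CPM and overlapped with 2 months (log2 change −0.68, SE 0.41). Of the members, 4 of 5, both let-7f hairpins among them, lay wholly below the 2-month libraries, as 5.33% of all precursors did. mir-98 alone was called lower, where 4.44% of all were, or 12.1% in either direction. The call of mir-98 was lost with any 1 of the 10 libraries left out except replicate 1 of 24 months, and its log2 change was −0.71 without replicate 2 of that age. In a linear trend over the 25 libraries the slopes per 10 months were −0.46 (SE 0.11) for let-7f-1, −0.44 (SE 0.10) for mir-98, −0.39 (SE 0.11) for let-7g and −0.33 (SE 0.13) for let-7i. All but let-7i were called lower, where 9.17% of all precursors were (19.8% in either direction). Nothing is read from the counts at 24 against 2 months or in the trend either, for the same reason. Without the libraries of 2 months 0 of 5 members were called in the trend, where calls over all precursors fell from 67 to 9.

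The comparisons that had not served in the choice share libraries with those that had. At 9 against 2 months all 5 members had values below 0, and 0 of 5 passed the edgeR test, where 0.888% of all precursors were called lower and 2.07% in either direction. No member had all libraries of 9 months below all of 2 months, as 1.48% of all precursors did. let-7f-1 had 1247, 1877, 764, 1536 and 733 CPM at 9 months, so that replicates 1, 2 and 4 lay near or within the range of 2 months and replicates 3 and 5 far under it. Its log2 change was −0.46 (SE 0.36, edgeR adjusted p = 0.811), and an interval of 1.96 SE on either side ran from −1.15 to 0.24. mir-98 had −0.49 (SE 0.31, edgeR adjusted p = 0.688), with an interval of −1.09 to 0.11. let-7g and let-7i had −0.32 (SE 0.36) and −0.28 (SE 0.41). No member had an unadjusted p under 0.05, and DESeq2 and limma-voom also called 0. These intervals still hold falls of the size seen at 24 months, so they do not show that the level was stable to 9 months.

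At 15 against 2 months 0 of 5 members passed (edgeR adjusted p = 0.896 to 0.926, with 0 at an unadjusted p under 0.05 and 0 by DESeq2 or limma-voom), where 0.888% of all precursors were called lower and 1.48% in either direction. No member had groups apart here, against 1.48% of all precursors. let-7f-1 had 1796, 1132, 1979, 1132 and 533 CPM at 15 months, and let-7i had 10142, 7097, 9248, 6249 and 2531 CPM. Replicates 1 and 3 stood inside the young range of let-7f-1 and replicate 5 far below it. The log2 change was −0.36 (SE 0.35) for let-7f-1 and −0.19 (SE 0.31) for mir-98, whose highest library of all 25, at 111 CPM, belonged to 15 months.

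Between consecutive later ages the members were again not separated by the test. At 15 against 9 months the log2 changes lay between 0.01 (let-7i) and 0.31 (mir-98), with edgeR adjusted p = 0.997 for each and 0.00% of all precursors called lower. For let-7g, let-7i and both let-7f hairpins the sign turned below 0 under some alternatives. At 24 against 15 months all 5 values were below 0, and 0 of 5 passed, where 0.296% of all precursors were called lower and 2.07% in either direction. The largest difference there was that of mir-98, at −0.76 (SE 0.31, edgeR adjusted p = 0.357, interval −1.36 to −0.16), and mir-98 alone had an unadjusted p under 0.05. let-7f-1 followed at −0.69 (SE 0.36, edgeR adjusted p = 0.504). At 30 against 24 months the values lay between −0.27 (let-7f-1) and −0.35 (mir-98), with edgeR adjusted p = 0.885 for each, 0.00% of all precursors called lower, and 0 members at an unadjusted p under 0.05. DESeq2 and limma-voom called 0 members in each of these 3 comparisons.

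The members varied together from library to library. Over the 25 libraries log2 CPM had Pearson's r = 0.98 between let-7f-1 and let-7g, 0.93 between let-7f-1 and let-7i, 0.93 between let-7f-1 and mir-98 and 0.82 between let-7i and mir-98. After the mean of each age was subtracted, the values were 0.98, 0.94, 0.89 and 0.80, so the shared variation was not only that between ages. These correlations share library, depth and scaling and carry no test. At 9, 15, 24 and 30 months a single library was the lowest for all 5 members, namely replicate 5 of 9 months, replicate 5 of 15 months, replicate 2 of 24 months and replicate 2 of 30 months. In these libraries let-7i had 4104, 2531, 1643 and 1471 CPM. At 2 months replicate 2 was lowest for 4 members, and replicate 1 was lowest for mir-98.

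The rest of the family was read from a list of let-7a-1, let-7a-2, let-7b, let-7c-1, let-7c-2, let-7d, let-7e and mir-202. Of these 8, mir-202 was too rare to be tested. At 30 against 2 months 0 of the 7 tested were called, where 5.03% of all precursors were called lower and 14.2% in either direction. All 7 had values below 0, as 55.0% of all precursors had, with a median log2 change of −0.24. The members had been chosen with their lower counts in this contrast known, so their difference from this list is not a test. let-7a-1, which differs from let-7f by 1 base, had −0.63 (SE 0.24) and let-7a-2 had −0.63 (SE 0.25). The remaining 5 lay between −0.14 (let-7b, SE 0.29) and −0.42 (let-7e, SE 0.33), and let-7d, a neighbour of let-7f-1, had −0.18 (SE 0.16). In the linear trend 2 of 7, let-7a-1 and let-7a-2, were called lower, where 9.17% of all precursors were (19.8% in either direction). As copies with a ratio of 0.945 to 1.03, let-7a-1 and let-7a-2 share 1 mature sequence and were also read as 1 measurement.

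**Figure D2:**
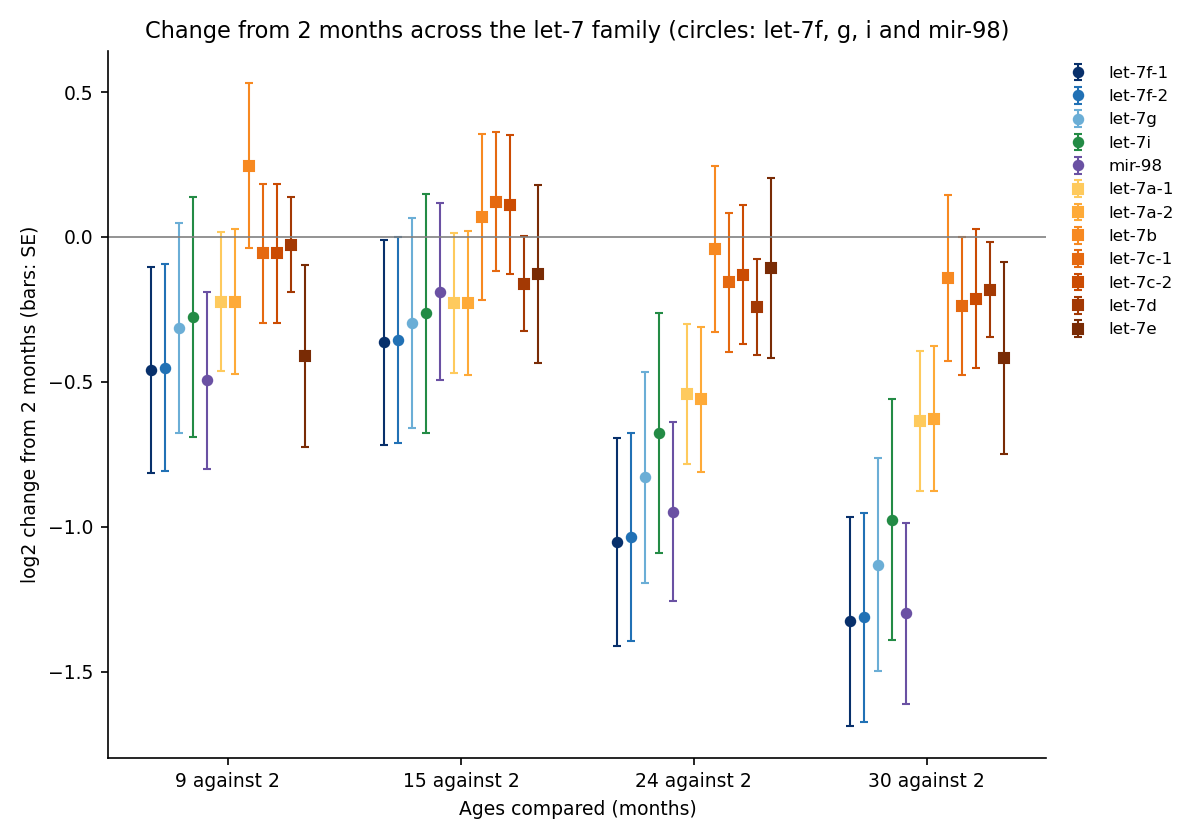
Log2 change from 2 months (vertical axis) at 9, 15, 24 and 30 months (horizontal axis) for the 5 members (circles) and 7 tested precursors from let-7a-1 to let-7e (squares). Bars are the SE of the fit over all 25 libraries. At 30 months the members lie between −0.97 and −1.33 and the squares between −0.14 and −0.63, while let-7j, at −1.22 with an SE of 1.18, is not drawn.

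Ratios of counts within a library do not depend on how libraries are scaled to one another. They were compared for neighbours in 1 locus and for the pair let-7g and let-7i. The let-7f-1 count may hold reads of let-7f-2 on chromosome X, and that of let-7a-1 reads of let-7a-2 on chromosome 9, so a ratio of neighbours need not be that of the products of 1 locus. The ratio of let-7f-1 to let-7d, both from 1 noncoding transcript gene on chromosome 13, averaged 1.06 ± 0.395 in the oldest blood, at 30 months, against 2.37 ± 0.333 at 2 months (SD over 5 libraries). The highest ratio at 30 months was 1.71 and the lowest at 2 months was 2.03, so the ages did not overlap. At 24 months it was 1.34 ± 0.398 and also did not overlap with 2 months. The ratio of let-7f-1 to let-7a-1 was 2.12 ± 0.672 at 30 months and 3.47 ± 0.400 at 2 months, with an overlap through replicate 1 of 30 months at 3.18. These differences carry no test, because the values of let-7f-1 at 30 against 2 months were known beforehand.

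In the Huwe1 intron the ratio of the neighbours differed little between ages, with the same limit for let-7f-2. The ratio of mir-98 to let-7f-2 was 0.0417 ± 0.00967 at 30 months and 0.0399 ± 0.00850 at 2 months, and its means at the 5 ages ranged from 0.0386 to 0.0447. The ratio of let-7g to let-7i was 0.0608 ± 0.00884 at 30 months and 0.0724 ± 0.0223 at 2 months. The log2 difference of 30 against 2 months was 0.06 (SE 0.20) for the first and −0.21 (SE 0.22) for the second, against −1.22 (SE 0.24) for let-7f-1 to let-7d.

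For the other intervals the 4 ratios were tested in 5 comparisons, 20 tests in all, by a two-sided exact permutation test over libraries, whose smallest possible p is 0.00794. After Benjamini-Hochberg adjustment over the 20, none passed (exact permutation, adjusted p from 0.582 to 0.905). In the test with the lowest unadjusted value, the ratio of let-7f-1 to let-7d was 1.72 ± 0.459 at 9 months and 2.37 ± 0.333 at 2 months, a log2 difference of −0.49 (SE 0.20, exact permutation p = 0.0476, adjusted p = 0.582). The same ratio differed by −0.57 (SE 0.34, exact permutation p = 0.127, adjusted p = 0.635) at 24 against 15 months.

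**Figure D3:**
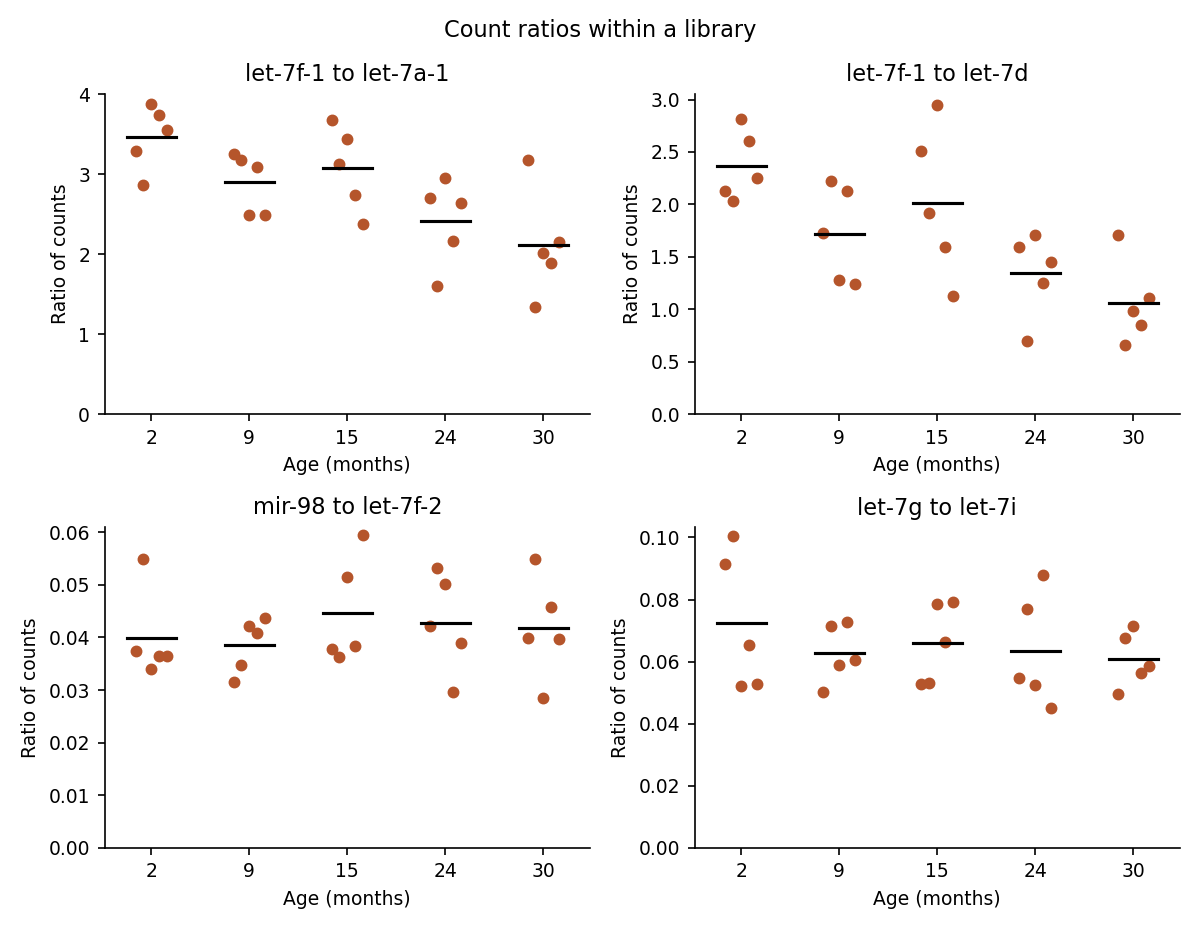
Count ratios within each library (vertical axes from 0) by age in months, for let-7f-1 to let-7a-1, let-7f-1 to let-7d, mir-98 to let-7f-2 and let-7g to let-7i. Points are libraries and lines are means (n = 5 per age). The ratio of let-7f-1 to let-7d averages 1.06 at 30 months and 2.37 at 2 months, while the mean ratio of mir-98 to let-7f-2 stays between 0.0386 and 0.0447.

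Within the family, the number of G or C bases in the 5p product ran alongside the size of the change. The 3 hairpins whose 5p product holds 7 G or C bases had the lowest log2 changes at 30 against 2 months, with −1.33 for let-7f-1, −1.31 for let-7f-2 and −1.30 for mir-98. The let-7f hairpins among them were read as a single measurement. The members were chosen with their lower counts in this contrast known. Nothing is therefore read from their standing below the rest of the family. Among those with 8, let-7g had −1.13 and the let-7a hairpins −0.63. Among those with 9, let-7i had −0.97 and let-7c-1, let-7c-2, let-7d and let-7e lay between −0.18 and −0.42, and let-7b, with 10, had −0.14. let-7g thus had a lower value than the let-7a hairpins, and let-7i than let-7c-1, let-7c-2, let-7d and let-7e, at equal numbers of G or C bases. let-7j, which also holds 8 but in 24 bases, had −1.22 with a wide SE of 1.18. Over all 286 tested precursors with a RefSeq mature sequence, which are 84.6% of those tested, the change had Pearson's r = 0.09 and Spearman's rho = 0.15 with the mean GC share of the mature arms. Over the 25 libraries, the mean of the members had r = 0.61 with the median level of the 33 precursors of lowest GC share outside the family (at most 43.2%) and r = −0.49 with that of the 31 of highest GC share (at least 54.9%), values that share library, depth and scaling. The part of base composition in the changes of the members was not tested.

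**Figure D4:**
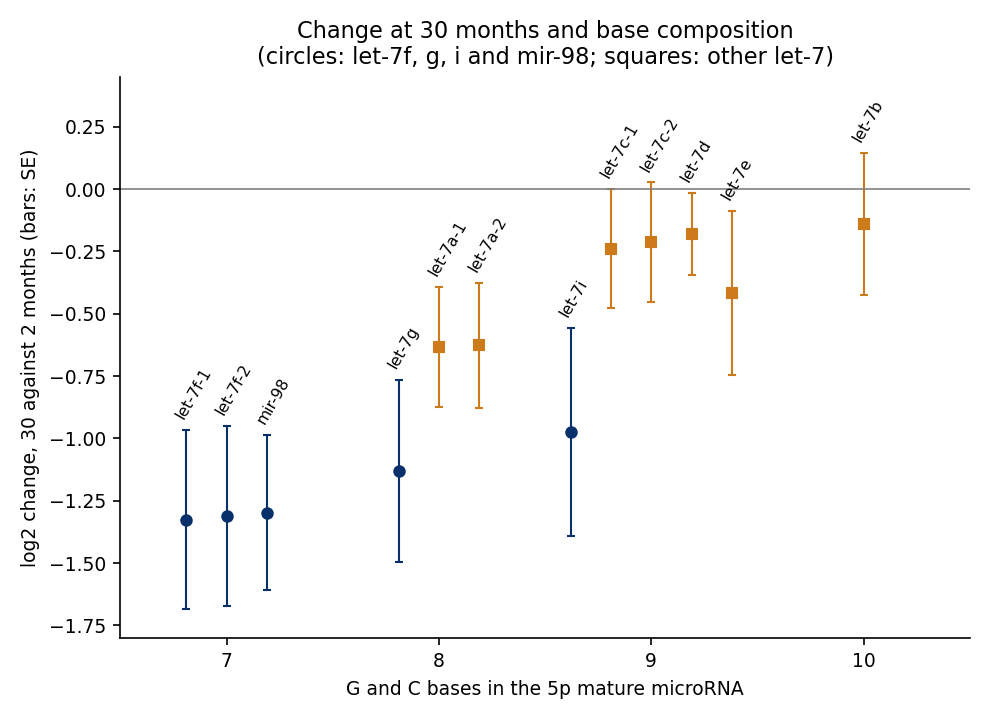
Log2 change at 30 against 2 months (vertical axis, bars are SE) by the number of G and C bases in the 5p mature microRNA (horizontal axis, points of equal number set side by side). Circles are the 5 members and squares 7 tested precursors from let-7a-1 to let-7e, without let-7j. Values run from −1.33 for let-7f-1 with 7 such bases to −0.14 for let-7b with 10, with let-7g and let-7i below the squares of equal number.

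The precursors outside the family whose log2 CPM followed the mean of let-7f-1, let-7g, let-7i and mir-98 most closely over the 25 libraries were sought among 140 precursors with a mean of at least 10 CPM. They were mir-144 of the red cell locus (r = 0.95), mir-20a of the mir-17-92 cluster (r = 0.94), mir-26b (r = 0.93), mir-101a (r = 0.92) and mir-101b (r = 0.91), where the median over the 140 was −0.06. All 5 had lower means at 30 months. mir-144 averaged 449.9 ± 258 CPM at 30 months, against 1193 ± 217 CPM in the youngest blood, and mir-20a averaged 38.6 ± 24.8 CPM, against 88.3 ± 31.7 CPM (SD over 5 libraries). These likenesses share library, depth and scaling and carry no test.

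let-7j, a precursor outside both lists, was singled out after its values were seen. Its product, annotated on chromosome 3, repeats let-7i-5p with 1 changed base, G8U, marked by the capital, and 2 further bases at the 3′ end.
let-7i-5p: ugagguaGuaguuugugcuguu
let-7j: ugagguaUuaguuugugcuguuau
Its counts, as a share of those of let-7i, differed from lane to lane and little within a lane. Its own log2 changes from 2 months were −1.46 (SE 1.18) at 9, −0.97 (SE 1.17) at 15, −1.18 (SE 1.17) at 24 and −1.22 (SE 1.18) at 30 months, and it was not called at any age (edgeR adjusted p = 0.568 to 0.914). In lane 3 it had 10, 12 and 14 counts, or 0.00732% to 0.00953% of let-7i. The share was 0.293% to 0.350% in the 4 libraries of lane 4, 0.431% to 0.452% in the 5 of lane 5 and 0.718% to 0.839% in the 5 of lane 6. It reached 1.83% to 2.20% in lane 7 and 2.03% to 2.15% in lane 8, with 4 libraries each. In lane 5, which held 1 library of each age, let-7i itself ranged from 28674 to 94376 counts. By age the share overlapped throughout, with medians of 0.795% at 2 months, 0.431% at 9, 0.447% at 15, 0.452% at 24 and 0.814% at 30 months. The cause was not tested.

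**Figure D5:**
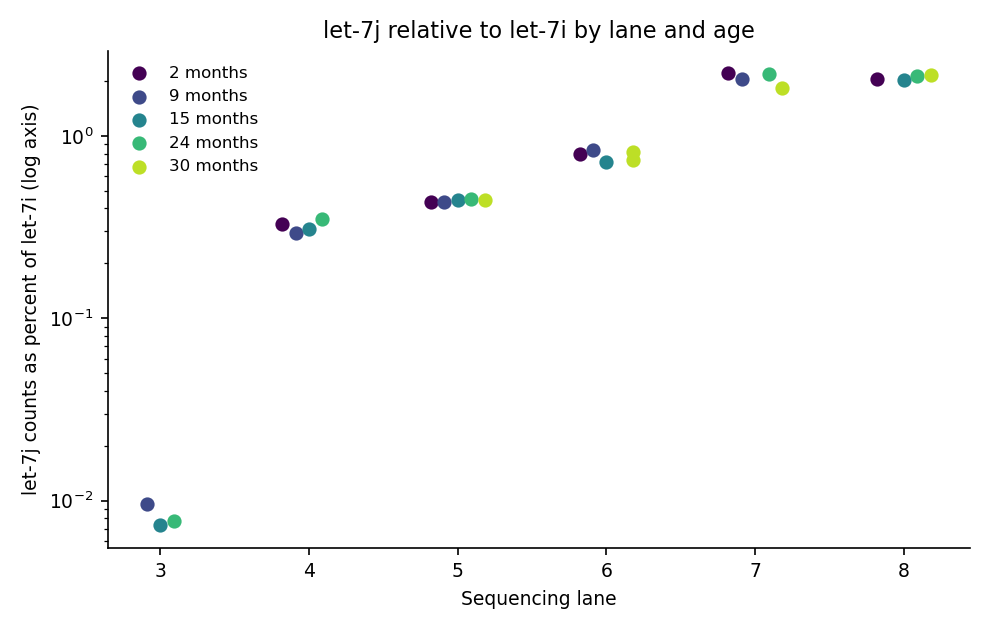
Counts of let-7j as a percentage of those of let-7i (vertical log axis) by sequencing lane (horizontal axis), with 1 point per library and colours for age. The lane 3 libraries sit under 0.01%, those of lane 5 at 0.431% to 0.452% and those of lanes 7 and 8 at 1.83% to 2.20%, with points of several ages together in each lane.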

How the data were processed

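The authors deposited 1 table of raw counts per microRNA precursor from TruSeq small RNA libraries of 25 blood samples, with 1 value for both arms of each hairpin. Per the submitters' processing notes, bcl2fastq 1.8.4, Trimmomatic 0.36 and SAMtools 1.3.1-9 were used, with no role stated. Aligner, counter, microRNA release, build, strand use and the treatment of reads that match several hairpins were not given in the sources used here, so reads of near-identical hairpins may be split or counted more than once. Columns were matched to samples by title and to ages by the age label, and replicates were numbered in deposited order, which pairs nothing.

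Counts were fitted over all 25 libraries with edgeR 4.0.16 in R 4.3.3 (TMM factors, default filter by age, robust quasi-likelihood F test, two-sided). Benjamini-Hochberg adjustment ran over all tested precursors of each comparison. The common biological coefficient of variation was 28.1%. A floor of 3 counts stood between 0.124 and 0.614 CPM, depending on the library, and covers counting error only. Ratios used a pseudocount of 0.5. The alternatives used DESeq2 1.42.0, limma 3.58.1, other scalings and filters, lane, thinning and left-out libraries. The edgeR and permutation steps were tested on simulated data. Named precursors were the members, the other let-7 hairpins, hairpins within 10 kb and the 5 of most similar pattern in either measure of likeness. Members, lists and tests were chosen with earlier results of these data known.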

Additional observations from a re-analysis of the deposited data

How the results depend on the processing

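Under 20 alternatives in each comparison of 2 ages, no member was called at 9 against 2, 15 against 2, 15 against 9, 24 against 15 or 30 against 24 months. The 4 calls at 30 against 2 months became 1 with library totals and 1 with no filter. With library totals, calls over all precursors rose from 48 to 57, but those lower fell from 17 to 6. With no filter, calls over all precursors fell to 15, and those lower to 7. The call of let-7g was lost in 10 of 20 alternatives and that of mir-98 in 0 of 20. The 1 call at 24 against 2 months became 3 with the DESeq2 Wald test, 3 with a filter of 10 CPM, 3 with only the compared libraries, 2 with DESeq2 size factors, 2 with limma-voom, and 0 with library totals, upper quartile factors, no filter or lane as a term. Leaving out each library in turn gave 0 to 1. The 4 calls of the linear trend became 0 without the libraries of 2 months, where calls over all precursors fell from 67 to 9. The slopes of the members there lay between −0.46 and −0.34 per 10 months. Library totals moved the median of all precursors by 0.24 at 30 against 2 months, where let-7f-1 had −1.06 and let-7i −0.73, and by 0.36 at 24 against 2 months. Of all precursors called at 30 against 2 months, 31 were higher and 17 lower, and with library totals 51 and 6. At 24 against 2 months 26 were higher and 15 lower. Library totals gave 69 higher and 3 lower there, and upper quartile factors gave 21 higher and 3 lower. Over the alternatives the number of precursors called ran from 15 to 57 at 30 against 2 months (48 as reported), 23 to 72 at 24 against 2 (41), 3 to 8 at 9 against 2 (7), 2 to 5 at 15 against 2 (5), 0 to 16 at 24 against 15 (7) and 9 to 89 in the trend (67).

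At 15 against 9 months the sign turned for let-7g and let-7i with library totals (−0.0100 for let-7g, −0.011 for let-7i) and with upper quartile factors (−0.039 for let-7g, −0.055 for let-7i), and for let-7i with limma-voom (−0.055). With each library left out, let-7f-1 ran from −0.050 to 0.31, let-7f-2 from −0.053 to 0.31, let-7g from −0.17 to 0.26 and let-7i from −0.14 to 0.25. With medians in place of means, the ratio of mir-98 to let-7f-2 turned to 0.16 at 9 against 2, −0.093 at 15 against 9 and 0.14 at 24 against 15 months, and that of let-7g to let-7i to 0.025 at 15 against 2 and 0.10 at 30 against 24 months. With each library left out, mir-98 to let-7f-2 ran from −0.087 to 0.086 at 9 against 2, from −0.15 to 0.064 at 24 against 15 and from −0.16 to 0.090 at 30 against 24 months. The ratio of let-7g to let-7i ran from −0.21 to 0.031 at 15 against 2, from −0.014 to 0.14 at 15 against 9, from −0.21 to 0.029 at 24 against 15 and from −0.14 to 0.10 at 30 against 24 months. The cause was not tested. No analysis paired by replicate number was possible, because these numbers follow deposition order and pair no libraries between ages. Lane, which several ages share, was fitted as a term instead, with 3 calls at 30 against 2 months. The index sequence in the column names follows age almost throughout, so index and age cannot be told apart.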

Other observations

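After the mean of each age was subtracted, mir-21a, an abundant microRNA of many blood cells, was the precursor most like the members over the 25 libraries (r = 0.94), followed by mir-20a (r = 0.93), mir-144 (r = 0.92), mir-301a (r = 0.92) and mir-26b (r = 0.91). The median over the candidates was −0.20. mir-21a averaged 5504 ± 1811 CPM at 30 months, against 6056 ± 1729 CPM in the youngest blood (SD over 5 libraries), a log2 change of −0.14 (SE 0.27), against −0.97 to −1.33 for the members. mir-301a had −0.69 (SE 0.48).

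Outside the let-7 family, 121 precursors with a mean of at least 10 CPM had a mature sequence. In the 33 with a GC share of at most 43.2%, 24 had a log2 change below 0 at 30 against 2 months, with a median of −0.07. In the 31 with a GC share of at least 54.9%, 16 were below 0, with a median of −0.01. The median deviation of the low-GC precursors from their 2-month mean was −0.18 to 0.14 over the libraries of 30 months and −0.38 to 0.20 over those of 2 months, while the mean of the members was −2.26 to −0.52 at 30 months and −0.39 to 0.40 at 2 months.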
